A study of Mus musculus with 25 samples.

Results

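Trimethylation of lysine 9 of histone H3 (H3K9me3) was compared on the autosomes between regenerating myofibers of vhl-/- mice and of HIF1dPA mice. The members were the H3K9me3 peak lists of 3 vhl-/- and 3 HIF1dPA libraries, with peaks on chromosomes 1 to 19 kept. They made up 6 of the 24 ChIP-seq lists of the series, and held 7747 of its 55242 listed peaks, 3476 from vhl-/- and 4271 from HIF1dPA. The question addressed by the comparison was how far H3K9me3 deposition is alike when HIF1α is kept from degradation by either of these routes. Upon Cre activity, vhl-/- mice lost Vhl, whose product binds hydroxylated HIF1α and sends it to the proteasome. HIF1dPA mice instead switched on a form of HIF1α with alanine in place of proline, so that it escapes VHL. In both, and in the wild-type and mfn2-/- mice of the same series, a Pax7-Cre(ERT2) driver, active in muscle stem cells, also switched on mito-Dendra2, a fluorescent protein of mitochondria. All mice received tamoxifen at 75 mg/kg once a day for 5 days, and the tibialis anterior was injured 2 days after the last dose with 50 µL of 1.2% BaCl2. Tissue was taken at 14 days post injury (dpi), when Dendra2+ fibers were dissected out. The recombination therefore concerned cells with the Pax7 driver and their progeny, and other cells of dissected tissue kept intact alleles. Age, sex and strain are not given in the labels, nor whether the 3 replicates are separate animals, so that every test below measures the spread between these libraries only.

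H3K9me3 is a mark of constitutive heterochromatin. It is laid down by methyltransferases such as SETDB1 and SUV39H enzymes, is bound by HP1 proteins, and covers repeats, gene clusters and the coding exons of many KRAB zinc finger genes, whose products themselves recruit SETDB1 to transposable elements. HIF1α is a transcription factor of the hypoxia response, and several H3K9 demethylases of the KDM3 and KDM4 families are known HIF1 targets.

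Promoter sequences are shown first, because they set the most frequently marked gene starts beside a HIF1 target that carried no peak at its start. Windows of 300 bases around each RefSeq gene start (build GRCm38.p6, same coordinates as the mm10 of the lists) were searched for peaks, and 57 of 31396 autosomal windows (0.182%) met a peak in any of the 6 libraries. No window met a peak in all 6, and 3 did in 5. LOC115488002 (chr12:18648740-18649039, + strand) met a peak in 2 vhl-/- and 3 HIF1dPA libraries, A530040E14Rik (chr1:85105843-85106142, + strand) in 3 and 2, and Duxf3 in 2 and 3. Zfp979 (chr4:147642459-147642758, - strand), a zinc finger gene, met a peak in 2 and 2, and P4ha2 (chr11:54100674-54100973, + strand), which encodes a collagen prolyl hydroxylase subunit and is a HIF1 target, in 0 and 0. Capitals mark either of 2 kinds of letters on either strand, the core of the HIF binding motif (ACGTG or GCGTG) or ACTGGAGA, which is frequent in the linkers between zinc fingers in coding sequence:
LOC115488002: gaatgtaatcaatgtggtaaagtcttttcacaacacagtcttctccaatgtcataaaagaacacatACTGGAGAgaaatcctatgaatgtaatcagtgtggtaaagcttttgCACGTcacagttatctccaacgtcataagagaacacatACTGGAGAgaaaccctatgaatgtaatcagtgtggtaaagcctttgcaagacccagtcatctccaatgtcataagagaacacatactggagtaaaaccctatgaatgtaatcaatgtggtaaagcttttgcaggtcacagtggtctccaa
A530040E14Rik: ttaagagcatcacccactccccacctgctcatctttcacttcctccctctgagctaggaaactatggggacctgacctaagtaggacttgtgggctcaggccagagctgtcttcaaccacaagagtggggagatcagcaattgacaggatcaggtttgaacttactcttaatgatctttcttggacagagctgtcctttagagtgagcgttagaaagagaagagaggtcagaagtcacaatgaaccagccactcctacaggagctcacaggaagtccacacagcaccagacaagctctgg
Zfp979: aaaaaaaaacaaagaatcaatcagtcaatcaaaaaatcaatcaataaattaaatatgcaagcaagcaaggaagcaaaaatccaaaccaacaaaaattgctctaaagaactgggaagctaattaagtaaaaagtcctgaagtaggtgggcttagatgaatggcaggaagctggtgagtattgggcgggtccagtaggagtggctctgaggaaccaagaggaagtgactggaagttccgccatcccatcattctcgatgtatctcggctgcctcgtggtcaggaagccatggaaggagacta
P4ha2: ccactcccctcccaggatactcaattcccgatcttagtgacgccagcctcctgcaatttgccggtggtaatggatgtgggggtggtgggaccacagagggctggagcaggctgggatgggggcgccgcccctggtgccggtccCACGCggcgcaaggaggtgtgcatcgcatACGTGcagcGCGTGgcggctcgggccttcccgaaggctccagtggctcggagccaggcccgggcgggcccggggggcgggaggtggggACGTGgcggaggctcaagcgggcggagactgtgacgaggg
The window of LOC115488002 held ACTGGAGA at 2 positions. These letters were found in 1.79% of all autosomal windows, in 6 of the 479 windows of zinc finger genes (1.25%) and in 6 of the 57 windows with a peak (10.5%). Here and below, zinc finger genes were taken by symbol (Zfp or Znf with a number, Zkscan, Zscan, Zbtb, Rex2, Zik1, Zim, Rslcan or Rsl1). Zinc finger genes under other symbols were not counted as such. The P4ha2 window held 4 HIF core matches, with overlapping matches counted separately. A HIF core match was present in 44.1% of all windows, in 49.5% of the 479 windows of zinc finger genes and in 15 of the 57 windows with a peak (26.3%). Both core forms contain CG, and the median number of CG per window was 7, 14 and 4 in these sets, in that order. The P4ha2 window held 26. Whether the motif shares go with CG content was not tested. These shares are a description, and matches are not binding sites.

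The lists of the models overlapped in length, with the HIF1dPA lists longer on average. vhl-/- libraries 1 to 3 held 1039, 1122 and 1315 autosomal peaks, and HIF1dPA libraries 1 to 3 held 1542, 1588 and 1141. The third HIF1dPA list thus lay inside the vhl-/- range, and the means were 1159 ± 142 and 1424 ± 246 (SD, n = 3 each). The ratio of the geometric means was 0.819, with p = 0.2 in an exact two-sided permutation test, in which 3 against 3 libraries cannot go below p = 0.1 (adjusted p = 0.311 over 14 exact tests). Peaks covered 0.971, 1.08 and 1.27 Mb in vhl-/- and 1.46, 1.504 and 1.12 Mb in HIF1dPA (ratio 0.815, exact p = 0.2). The median peak was 626 ± 3.06 bp long in vhl-/- and 633 ± 20.1 bp in HIF1dPA (exact p = 0.5). Among peaks of score 100 or more, the vhl-/- median was shorter by more, at -178 bp (exact p = 0.1, the smallest possible). All scores, defined as 10 times the negative log10 p of peak calling, were at least 50, and 9.99 to 12.2% of peaks of a list scored 100 or more. The read depth behind the lists is unknown, and the number of peaks a caller returns moves with depth, so that a difference in peak number and a difference in depth cannot be told apart.

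**Figure D1:**
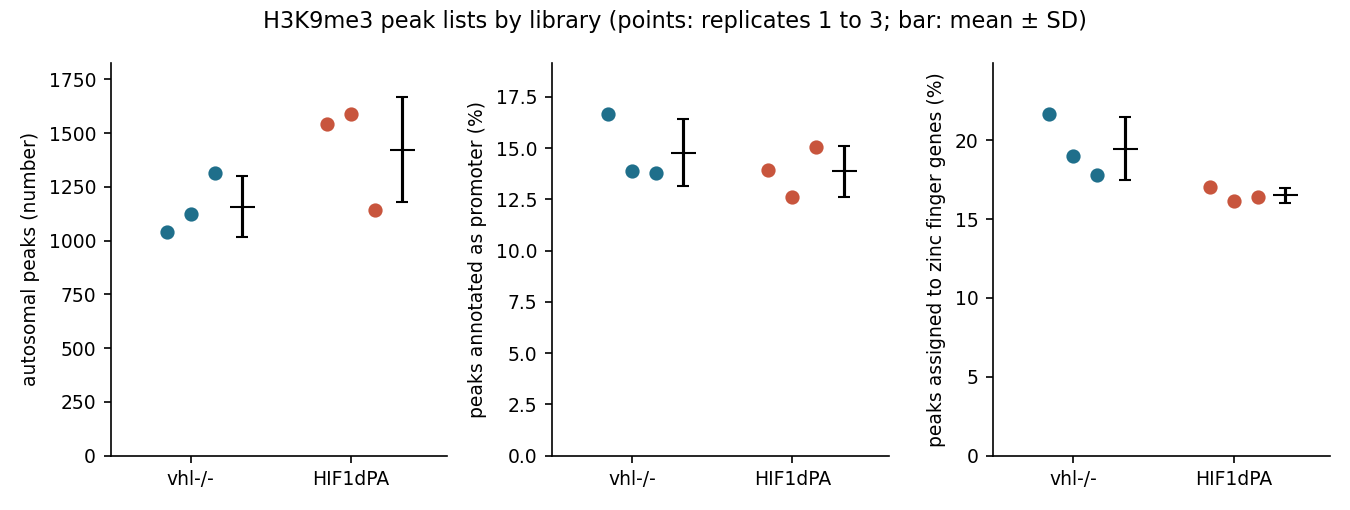
Number of autosomal H3K9me3 peaks, percent of peaks in the promoter classes and percent assigned to zinc finger genes, in each of the 3 vhl-/- and 3 HIF1dPA libraries (points) with mean ± SD (bar). The groups overlap in peak number and promoter share, whereas the 3 vhl-/- values of the zinc finger share, 17.8 to 21.7%, lie above the 3 HIF1dPA values, 16.1 to 17.1%.

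Of the annotation classes given by the authors, the intergenic, promoter and intronic shares overlapped between the models, whereas the exonic share did not. Exonic peaks made up 5.29, 3.92 and 4.18% of the vhl-/- lists and 3.11, 3.53 and 3.59% of the HIF1dPA lists, a class picked out after its values were seen and given with no test. Distal intergenic peaks made up 61.5, 62.7 and 64.1% of the vhl-/- lists and 63.7, 65.1 and 62.1% of the HIF1dPA lists (exact p = 0.5). Peaks within 3 kb of a gene start made up 14.8 ± 1.63% and 13.9 ± 1.24% (exact p = 0.7), and intronic peaks 15.2 ± 0.944% and 16.3 ± 0.227% (exact p = 0.2). The difference of the intronic share, -1.06 percentage points, was the largest of these 3, and it was -3.99 points among peaks of score 100 or more (exact p = 0.1, the smallest possible). Olfactory and vomeronasal receptor genes, large families of sensory receptors kept silent outside sensory neurons, were assigned 6.71 ± 1.45% and 7.39 ± 1.25% of the peaks (exact p = 0.6). The number of genes with an assigned peak was 641, 704 and 803 in vhl-/- and 956, 964 and 728 in HIF1dPA (ratio 0.814, exact p = 0.2).

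Of the shares tested, that of zinc finger genes was the one whose groups did not overlap. They were assigned 21.7, 18.98 and 17.8% of the vhl-/- peaks and 17.1, 16.1 and 16.4% of the HIF1dPA peaks, a difference of 2.96 percentage points (exact p = 0.1, the smallest possible, adjusted p = 0.28). The number of peaks on these genes did not follow that order. It was 225, 213 and 234 in vhl-/- and 263, 256 and 187 in HIF1dPA, on 75, 73 and 72 and on 74, 76 and 69 genes. Among peaks of score 100 or more the difference had the other sign, at -2.60 percentage points (exact p = 0.5).

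Libraries of one model resembled each other no more than libraries of the other. The Jaccard index served as the measure of similarity and divides the base pairs that 2 lists share by those in either list. It averaged 0.188 over the 3 pairs of vhl-/- libraries, 0.163 over the 3 pairs of HIF1dPA libraries and 0.175 over the 9 pairs across models. The mean within models exceeded that across models by 0.000971, with p = 0.5 in an exact one-sided permutation test. With wild-type libraries the index averaged 0.125 for vhl-/- and 0.124 for HIF1dPA, and with mfn2-/- libraries 0.0796 and 0.0703. In each of these 4 comparisons the values of the other model lay above those of the third genotype, with exact p = 0.1, the smallest possible (adjusted p = 0.28). The index depends on list length, and wild-type lists were longer, at 2176 to 2407 peaks. With 780 peaks in each list, the index with vhl-/- was higher for HIF1dPA than for wild-type by 0.0397 and than for mfn2-/- by 0.123. The index with HIF1dPA was higher for vhl-/- by 0.0408 and 0.131 (exact p = 0.1 in each).

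The excess of the similarity between the models over that with wild-type was smaller without 2 gene clusters. Both were picked as places with many peaks in both models and few in wild-type or mfn2-/-. Leaving them out was therefore bound to lower the excess, and the values below only describe by how much. When chromosome 13 from 65 to 67 Mb and chromosome 12 from 113 to 116 Mb were left out, an alternative chosen after seeing the data, the mean index was 0.146 across the 2 models, against 0.133 of vhl-/- with wild-type and 0.133 of HIF1dPA with wild-type. The excess over wild-type fell from 0.0496 to 0.0123 for the index with vhl-/- (exact p = 0.2) and from 0.0508 to 0.0125 for that with HIF1dPA (exact p = 0.1). The excess over mfn2-/- was 0.0673 and 0.0760 without the clusters, against 0.0952 and 0.104 with them.

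**Figure D2:**
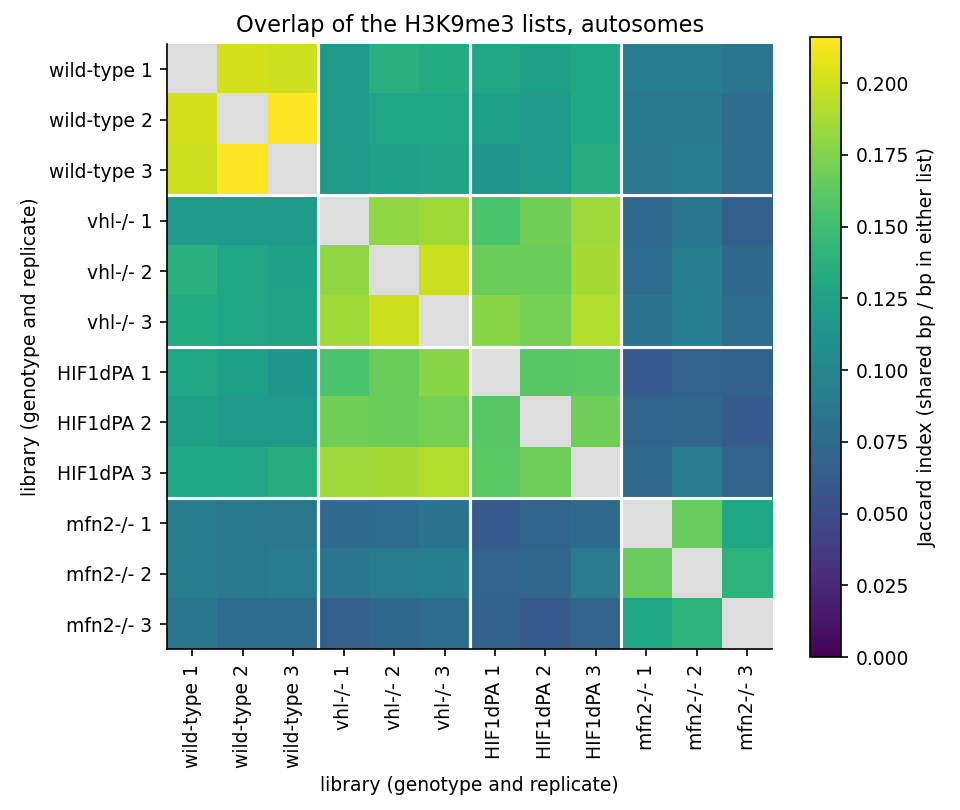
Jaccard index of every pair of the 12 autosomal H3K9me3 lists, with genotype and replicate on both axes and the index as color (grey, a list with itself). The block of vhl-/- with HIF1dPA, 0.155 to 0.192, has values like those within each model and above those of either model with wild-type, 0.114 to 0.137, or with mfn2-/-, 0.0617 to 0.0934.

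Peaks of the 6 libraries that overlapped by at least 1 bp were merged into 5389 regions, of which 4549 (84.4%) came from a single library. A peak in all 6 libraries was found in 103 regions (1.91%). Regions with a peak in 3 of 3 libraries of one model and 0 of 3 of the other numbered 2 for vhl-/- (0.0371% of all regions) and 4 for HIF1dPA (0.0742%). Among regions present in 5 libraries, the missing library was most often vhl-/- replicate 2, in 20 regions, and least often HIF1dPA replicate 1, in 5. With peaks of score 100 or more only, 0 regions were left for vhl-/- alone, 2 for HIF1dPA alone and 30 for all 6. Leaving out any 1 library raised the counts of a single model, to 7 to 38 for vhl-/- and 9 to 48 for HIF1dPA, since fewer libraries then had to hold or lack a peak.

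**Figure D3:**
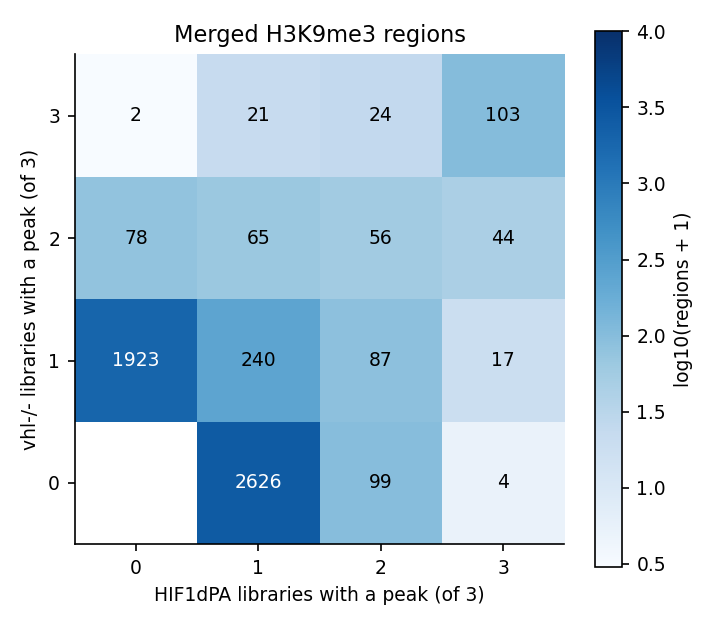
Number of merged regions (printed, and as color on a log10 scale) by how many vhl-/- libraries (vertical axis) and how many HIF1dPA libraries (horizontal axis) hold a peak there. Most regions lie in 1 library of 1 model (1923 and 2626), and the corner of 3 and 3 libraries holds 103 regions, against 2 and 4 in the corners of 3 and 0.

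Whether a peak of one model was found again in the other went with its score. Of each vhl-/- list, 43.3, 38.0 and 37.3% of peaks overlapped a peak of any HIF1dPA library, and of each HIF1dPA list 31.3, 31.2 and 36.7% overlapped a peak of any vhl-/- library. In the 25% of peaks with the highest scores the shares were 76.5 to 80.0% and 68.9 to 74.4%, and in the 25% with the lowest scores 17.3 to 26.2% and 10.6 to 17.1%. Peaks of 3 kb or longer were found again in 94.7 to 97.7% of vhl-/- cases (33, 38 and 43 peaks) and 95.7 to 98.0% of HIF1dPA cases (47, 49 and 46 peaks). Peaks assigned to zinc finger genes were found again in 61.3 to 66.7% and 58.9 to 64.2%, and those of the sensory receptor genes in 12.5 to 24.5% and 10.4 to 22.2%.

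The 103 regions held by all 6 libraries were long, lay on all 19 autosomes and were most numerous on chromosome 13. They had a median length of 3378 bp and ranged from 579 to 32968 bp. The regions that were neither in all 6 nor in 3 of one model and 0 of the other had a median of 598 bp. Of these 5280 regions, 4549 came from a single library. A region merged from overlapping peaks is at least as long as its longest peak, and longer peaks overlap more easily. The difference in length is therefore at least partly set by the merging, and no conclusion is drawn from it. Chromosome 13 held 41 of the 103 regions, chromosome 4 held 16, chromosome 1 held 8 and chromosome 17 held 6. Of the 5280 regions named above, the same chromosomes held 529, 370, 358 and 402. Zinc finger genes were assigned 31 regions through 16 genes, 17 of these regions on chromosome 13 and 10 on chromosome 4. By annotation, 28 were promoter regions, 12 intronic, 4 exonic, 6 in untranslated parts of genes and 53 distal intergenic. Of the 103, 71 met a peak in a wild-type library, 57 in all 3 wild-type libraries, and 57 in an mfn2-/- library. Of the 5280 shorter regions, 601 were assigned to zinc finger genes. By annotation, 557 of the 5280 were promoter regions, 934 intronic and 3556 distal intergenic. A peak in a wild-type library was met by 932, in all 3 wild-type libraries by 182, and in an mfn2-/- library by 452. Longer regions meet peaks more easily, so that these counts are a description.

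The region with the highest scores in every library lay at the promoter of Zfp998, a zinc finger gene (chr13:66428976-66439104, mm10). Its score was 985, 1009 and 856 in vhl-/- and 1022, 846 and 879 in HIF1dPA, and the region ranked first in all 6 lists. Next came a promoter region of Zfp640 (chr13:66667372-66684007), with scores of 952, 863 and 699 in vhl-/- and 792, 727 and 688 in HIF1dPA. The groups overlapped at both. Gm5614 (chr9:35305061-35305924), a predicted gene, had an intergenic region with scores of 836, 753 and 714 against 578, 566 and 767. At Gm10801 (chr2:98661717-98665645) the scores were 704, 285 and 719 against 612, 646 and 803, and at Gm9075 (chr12:3109344-3110636) 502, 471 and 399 against 253, 354 and 413. Both models thus held peaks of high score at all 3 predicted genes, and peaks of H3K27me3, the Polycomb mark, also overlapped them, in all 3 libraries of each genotype for Gm5614 and Gm9075 and in 2 vhl-/- and 3 HIF1dPA libraries for Gm10801. No filter for regions that give peaks with any antibody was applied here. Whether these 3 are such regions was not tested, so that the peaks cannot be taken as deposition of either mark. The other regions among the first 10 were an exon of Chl1, a neural cell adhesion gene (exon 5 of 27, chr6:103648528-103649786), and regions assigned to Ly6c2, Vmn1r-ps151, 2010315B03Rik and Cbx3-ps1, each with mean score percentiles between 98.5 and 99.2 within their lists.

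Between the models, neither the strength nor the length of the 103 shared regions differed beyond replicate spread at the threshold used. Only regions listed in all 6 libraries were compared, so that any region too weak in a library to be listed was left out beforehand. The comparison therefore cannot show that the models are equal in strength. The highest score of each region was compared on a log2 scale, centered on the library median, with limma, and 0 regions (0%) passed an adjusted p of 0.05 (smallest adjusted p = 0.257). At an unadjusted p under 0.05 there were 4, all with the higher score in vhl-/-. Base pairs under peaks were compared with limma on a log2 scale without centering, and 0 regions (0%) passed (smallest adjusted p = 0.240). At an unadjusted p under 0.05 there were 7, 2 longer in vhl-/- and 5 longer in HIF1dPA. These lengths therefore carry the longer HIF1dPA lists. With lengths centered on the library median, 0 regions passed (smallest limma adjusted p = 0.274) and 5 had an unadjusted p under 0.05. The median difference over the 103 regions was 0.00 on the log2 scale for the score and -0.06 for the uncentered length, but 0.07 for the centered length. The higher score was in vhl-/- in 53 regions and in HIF1dPA in 50.

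The regions nearest to a difference are given as values. A region at Platr16, a noncoding RNA gene of chromosome 4 (start 145445552), scored 489, 492 and 346 in vhl-/- and 92.1, 151 and 325 in HIF1dPA, a log2 difference of 1.43 ± 0.46 (SE, limma adjusted p = 0.257). Its groups did not overlap, though the third HIF1dPA library lay just below the lowest vhl-/- library. A region at A530032D15Rik on chromosome 1 (chr1:85108486-85116308) scored 208, 204 and 90.4 against 58.6, 76.2 and 64.1, again without overlap, a log2 difference of 1.27 ± 0.42 (limma adjusted p = 0.257). In the other direction, Zfp640 (chr13:66709667-66713433) scored 74.7, 135 and 56.3 in vhl-/- and 149, 117 and 211 in HIF1dPA, with overlapping groups and a log2 difference of -0.87 ± 0.43 (limma adjusted p = 0.783). For length, Gm2619 on chromosome 1 (start 85304365) had 1912, 3693 and 2659 bp under peaks in vhl-/- and 5795, 5966 and 5660 bp in HIF1dPA, a log2 difference of -1.13 ± 0.26 (limma adjusted p = 0.240). Dpy19l2 had 416, 580 and 432 bp against 769, 775 and 938 bp (log2 difference -0.81 ± 0.20, limma adjusted p = 0.240). Litaf had more in vhl-/-, with 513, 567 and 690 bp against 379, 355 and 355 bp (log2 difference 0.69 ± 0.18, limma adjusted p = 0.240). The groups did not overlap in length at these 3 genes.

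The 2 regions of vhl-/- alone were annotated to exons by the authors. One, annotated to exon 6 of 17 of Sp140, was 12207 bp long (chr1:85617123-85629329). Sp140 is a nuclear body gene with a chromatin reader domain expressed in immune cells. The region had scores of 125, 114 and 95.1 and 5649, 8381 and 9232 bp under peaks. All 3 wild-type libraries had a peak in it and 0 mfn2-/- libraries. HIF1dPA peaks lay near, at 1928, 6059 and 702 bp from its edge in replicates 1 to 3. The other was annotated to exon 6 of 8 of Zfp110 (chr7:12846728-12848040), a zinc finger gene, with scores of 66.5, 58.1 and 53.7 and with HIF1dPA peaks 3579, 2966 and 4815 bp away. It met no peak of the wild-type or mfn2-/- lists.

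Of the 4 regions of HIF1dPA alone, the one with the highest scores lay in intron 1 of 3 of Zfp985 (chr4:147565777-147567591), at 108, 92.5 and 87.1. vhl-/- peaks lay 404, 235 and 621 bp from it, and it met peaks in 3 wild-type and 2 mfn2-/- libraries. The intergenic region assigned to Cbx3-ps1, a pseudogene (chr13:65927079-65928462), scored 54.2, 65.3 and 65.9, with vhl-/- peaks 1777, 1600 and 2752 bp away. Those of Gm12892 (chr4:122012238-122013266) and of Ighv8-11, an immunoglobulin heavy chain variable segment (chr12:115549302-115551120), scored 71.2, 79.9 and 56.0, and 67.3, 58.9 and 54.8. Of all 6 regions, only that of Ighv8-11 had no peak of the other model within 5000 bp in any library. The nearest vhl-/- peaks were 6487, 15499 and 10230 bp away.

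At the level of the assigned gene, 134 of 2610 genes (5.13%) had a peak in all 6 libraries. Genes with a peak in 3 of 3 libraries of one model and 0 of 3 of the other were 4 for vhl-/- (0.153%) and 10 for HIF1dPA (0.383%). Those of vhl-/- were Obox4-ps17, 6720489N17Rik, Nxph1, which encodes a neurexin ligand, and Mettl4, a methyltransferase gene. At Mettl4 the peaks of vhl-/- replicates 2 and 3 overlapped, and at the other 3 genes no peaks of different libraries did. At Nxph1, single peaks began at 9279889, 9445550 and 9699013 of chromosome 6, with scores of 63.2, 53.8 and 53.1, and all 3 wild-type libraries had a peak assigned to this gene as well. Among the HIF1dPA genes, Vmn2r50, a vomeronasal receptor gene of chromosome 7, had 4 peaks in each of the 3 libraries and 0 in each vhl-/- library, and the highest score among these peaks was 73.3, 84.4 and 74.5. Gm13229 had 2, 1 and 2 peaks and Ighv1-18 had 1, 2 and 1. The other 7 were Nlrp4g, Gm23665, Zfp804b, Gm13991, Mir466f-4, Gm15501 and Vmn2r-ps120. Peaks of different HIF1dPA libraries overlapped at Vmn2r50, Gm13229, Ighv1-18 and Gm23665. At Nlrp4g, Zfp804b, Gm13991, Mir466f-4, Gm15501 and Vmn2r-ps120 no peaks of different HIF1dPA libraries did.

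By gene family, zinc finger genes were the most often shared. Of 138 such genes with a peak in any library, 32 (23.2%) had one in all 6, 0 in vhl-/- alone and 1 in HIF1dPA alone, whereas 5.13% of all genes had one in all 6. Zfp640 carried 34, 28 and 28 peaks in vhl-/- and 36, 32 and 32 in HIF1dPA, and Zfp998 carried 17, 13 and 23 against 21, 18 and 17. On chromosome 4, Zfp979 carried 10, 9 and 10 against 10, 8 and 7, and Zfp985 4, 5 and 5 against 6, 5 and 4. Counts overlapped between the models at each of these 4 genes. Of 90 olfactory receptor genes with a peak, 1, Olfr461, had one in all 6 libraries, and 82 had one in a single library. Of 167 vomeronasal and trace-amine receptor genes, 5 had a peak in all 6, with Vmn1r-ps151, Vmn1r-ps2 and Vmn1r-ps60 at the highest scores. The clustered protocadherins, adhesion genes of neurons, had peaks at 9 genes, 0 of them in all 6 libraries. Of predicted genes with a peak, 44 of 820 had one in all 6 libraries, and of Rik genes 9 of 100. Families were taken by symbol, so that a zinc finger gene with a predicted or Rik symbol counts in those groups. How similar the copies within these groups are, and how well reads can be placed on 1 copy, was not examined. The assignment of a peak to 1 gene is therefore uncertain.

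Few genes of the HIF pathway, of muscle or of the H3K9 machinery had peaks in either model, and few protein-coding genes did in general. Outside the zinc finger and sensory receptor families, 1190 of 18732 autosomal protein-coding RefSeq genes (6.35%) were assigned a peak in any of the 6 lists, and at this rate lists of 10 to 41 genes hold few or none. None of the 10 HIF pathway genes, which include Hif1a, Arnt, Vhl and the Egln prolyl hydroxylases, was assigned a peak in any of the 6 lists. Of 33 HIF1 target genes, P4ha2 was assigned one. It was an intergenic peak downstream of the gene (chr11:54139914-54141141), with scores of 87.2, 106 and 64.7 in vhl-/- and 65.9 and 65.6 in HIF1dPA replicates 1 and 2, and no peak in HIF1dPA replicate 3. Wild-type libraries had it at 96.8, 85.4 and 127. Of 20 genes for writers, erasers and readers of H3K9 methylation, Atf7ip, a partner of SETDB1, had a peak in intron 5 of 14, in 1 vhl-/- library (score 52.7) and 2 HIF1dPA libraries (85.8 and 59.0). Of 23 muscle genes, among them the myosin heavy chain genes Myh1, Myh2, Myh3, Myh4, Myh7 and Myh8, only Mef2c, a myogenic transcription factor gene, had peaks, 2 in HIF1dPA replicate 2. Of 41 imprinted genes, Ndn, Herc3 and Rasgrf1 each had a peak in 1 library. Of 14 genes that mark myofibers, muscle stem cells, endothelium, leukocytes and fibroblasts, Cdh5 and Adgre1 had a peak in 1 library each and 12 had none. Absence of this mark is no measure of the cell types present.

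Along zinc finger genes, and along other protein-coding genes, more of the end of the gene than of its start lay under peaks in both models. RefSeq gene bodies of 385 protein-coding zinc finger genes were cut into parts of 10% of their length, a description added after seeing the data. A peak lay within 61, 50 and 54 of these bodies in vhl-/- and 59, 57 and 48 in HIF1dPA. Peaks covered 0.265, 0.448 and 0.576% of the first 10% of the gene body and 2.36, 2.03 and 3.09% of the last 10% in vhl-/-. In HIF1dPA they covered 0.647, 0.677 and 0.526% of the first part and 3.33, 3.04 and 2.29% of the last part. The last part exceeded the first in 6 of 6 libraries, by 2.17 ± 0.432 percentage points (SD), and by 1.45 on average without chromosomes 4 and 13. The models overlapped in the last part. In many zinc finger genes the exon for the zinc finger array is the last one. Zinc finger genes were taken by symbol, so that those under other symbols count among the other genes, and their number was not determined. The 16072 other protein-coding genes were covered much less, at 0.0307 to 0.0343% of their bodies in vhl-/- and 0.0322 to 0.0424% in HIF1dPA, against 0.799 to 0.996% and 0.729 to 1.13% of zinc finger genes. Of the bodies of those other genes, the last part was covered to 0.0856, 0.0993 and 0.101% in vhl-/- and to 0.0952, 0.0400 and 0.0421% in HIF1dPA, with overlap. Their first part was covered to 0.0204, 0.0190 and 0.0118% in vhl-/- and to 0.0381, 0.0276 and 0.0302% in HIF1dPA, without overlap. The last part thus exceeded the first in 6 of 6 libraries in these genes as well. Of the base pairs under peaks in their bodies, 65.7, 63.4 and 68.6% lay in the last 50% of the gene in vhl-/- and 56.7, 50.9 and 54.7% in HIF1dPA, again without overlap. These differences between the models were noticed after the values were seen and were not tested.

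**Figure D4:**
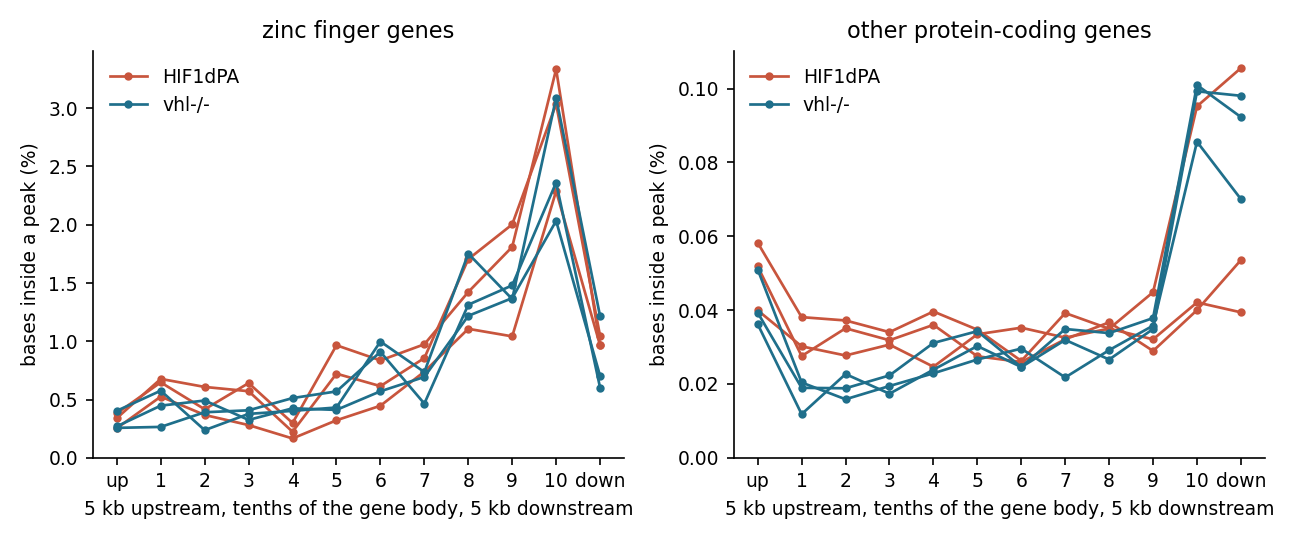
Percent of bases inside a peak in the 5 kb upstream, in successive 10% parts of the gene body from start to end and in the 5 kb downstream, for zinc finger genes (left) and other protein-coding genes (right, smaller scale), with 1 line for each of 3 vhl-/- and 3 HIF1dPA libraries. In zinc finger genes all 6 lines peak in the last part, at 2.03 to 3.33%, and the models interleave.

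Peaks gathered in a few windows of 1 Mb. The 10 windows with the highest mean number of peaks held 30.5, 27.5 and 28.6% of the vhl-/- peaks and 24.1, 25.3 and 30.1% of the HIF1dPA peaks. Chromosome 13 from 66 to 67 Mb, with Zfp640 and Zfp998, held 75, 69 and 78 peaks in vhl-/- and 87, 76 and 68 in HIF1dPA, and the adjoining 65 to 66 Mb, with Gm26639 and Gm10139, held 53, 51 and 61 against 58, 67 and 62. Chromosome 4 held 31, 37 and 43 against 37, 49 and 35 peaks from 145 to 146 Mb, and 29, 28 and 35 against 41, 34 and 34 from 147 to 148 Mb, both among zinc finger genes. From 85 to 86 Mb of chromosome 1, where Sp140 and related genes lie, the numbers were 34, 32 and 35 against 24, 32 and 42. The groups overlapped in each of these 5 windows. The other windows among the 10 were led by Ighv8-12, Zfp808, Gm6205, Zfp960 and Vmn2r-ps46.

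Of 190 windows with at least 3 peaks in a library, the peak numbers of the models did not overlap in 14. In 1 window (0.526%) vhl-/- was higher, and in 13 (6.84%) HIF1dPA was higher. Since the HIF1dPA lists were longer on average, shares of the list were also compared, and then 10 windows (5.26%) were higher in vhl-/- and 11 (5.79%) in HIF1dPA. The vhl-/- window, chromosome 13 from 67 to 68 Mb with Zfp759 and Zfp729a, was separate by number and by share, at 12, 15 and 11 peaks against 7, 10 and 8. From 115 to 116 Mb of chromosome 12, among immunoglobulin heavy chain variable segments, HIF1dPA had 37, 43 and 35 peaks against 28, 30 and 27, but the groups overlapped by share. The window before it, from 114 to 115 Mb, was separate by both, with 10, 10 and 9 against 6, 2 and 6. Of the 19 autosomes, the share of peaks did not overlap on 3. It was higher in vhl-/- on chromosome 17 (5.26% of autosomes), at 8.28, 7.93 and 8.14% against 7.78, 7.12 and 6.66%. It was higher in HIF1dPA on 2 (10.5%), chromosome 12, at 8.43, 8.82 and 8.68% against 7.99, 7.93 and 6.46%, and chromosome 15, at 1.69, 1.39 and 1.40% against 1.25, 1.25 and 0.913%.

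**Figure D5:**
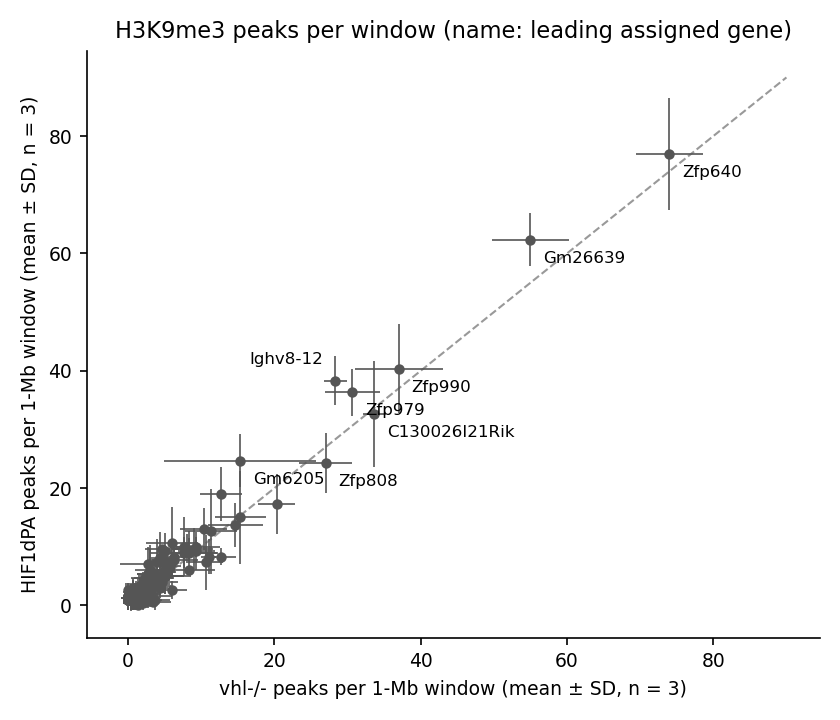
Mean number of H3K9me3 peaks per 1-Mb window in vhl-/- (horizontal axis) and HIF1dPA (vertical axis), with SD over 3 libraries as bars, for the 190 windows with at least 3 peaks in a library (dashed line, equal numbers). Windows with the most peaks lie near the line, led by those of Zfp640, with 69 to 78 peaks in vhl-/- and 68 to 87 in HIF1dPA, while the Ighv8-12 window lies above it.

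These 2 clusters set both models apart from the other genotypes. From 65 to 67 Mb of chromosome 13, vhl-/- libraries held 128, 120 and 139 peaks and HIF1dPA libraries 145, 143 and 130, whereas wild-type libraries held 40, 33 and 28 and mfn2-/- libraries 35, 31 and 35. As a share of the list this was 10.6 to 12.3% in vhl-/- and 9.01 to 11.4% in HIF1dPA, 1.25 to 1.84% in wild-type and 2.68 to 3.97% in mfn2-/-. From 113 to 116 Mb of chromosome 12, among the immunoglobulin heavy chain variable segments, vhl-/- held 34, 33 and 34 peaks and HIF1dPA 50, 55 and 46, against 6, 9 and 8 in wild-type and 4, 3 and 5 in mfn2-/-. In both clusters all 6 libraries lay above all 6 of the other genotypes. These clusters were chosen after their values were seen. Of the 103 regions in all 6 libraries, 21 met no peak in any wild-type or mfn2-/- list, 13 of them in the chromosome 13 cluster, of which 8 were assigned to Zfp640, and 3 at Ighv genes. The other 5, also named after their values were seen, were assigned to Cpeb4, Gria1, Pcca, Nxpe2 and Adam29. Strain and litter are not given in the labels, and whether either moves with these clusters was not tested.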

How the data were processed

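Regenerating myofibers were assayed by ChIP-seq with antibodies against H3K9me3 and H3K27me3. The authors called and annotated peaks in each library separately. The submitters' processing notes name the mm10 build, BWA 0.7.5, MACS and deepTools 3.5.0, with no role or order given. The deposited lists give position, nearest gene, annotation class and a score per peak, which is 10 times the negative log10 p of peak calling. This score grows with depth, and depth is unknown. Numbering in the 6 lists runs past the rows listed, with 347 to 463 numbers per list absent, and what removed those peaks is not given in the sources used here.

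Autosomal peaks of both models were merged into regions by an overlap of at least 1 bp. Values per library were compared by exact permutation tests over 20 arrangements, and shared regions with limma 3.58.1 in R 4.3.3, with Benjamini-Hochberg adjustment. Other values were computed in Python 3.11.15. Merging into regions, the permutation tests of means and limma were checked on simulated or made-up values. The differences simulated for limma were larger than any seen here, so that this check says nothing about smaller ones. The other steps were not simulated. Members, gene lists and tests were chosen with earlier results of these data known. Regions and genes are named by highest mean score percentile within lists, up to 8 per direction for those of a single model and 10 for those in all 6 libraries, windows by the 10 highest mean peak numbers, shared regions by smallest adjusted p, and list members by the number of libraries. The 2 lowest ranked genes of HIF1dPA alone, windows outside the first 10, promoter windows and the clusters on chromosomes 12 and 13 were named after their values were seen. Deviations of same-numbered libraries from their group means, over the scores of the 103 shared regions, correlated at -0.108, -0.0199 and -0.0822, so that the numbers were not treated as pairs. For single values per library, the same correlation over 3 pairs ran from -0.998 (receptor share) to 0.832 (zinc finger share). Peak sequences were not used here, and RefSeq promoter windows stand for gene starts. The alternatives were a score minimum of 100, lists of equal length, joined peaks within 1000 bp, other chromosomes, other overlaps, and leaving out each library.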

Additional observations from a re-analysis of the deposited data

How the results depend on the processing

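Of 242 recomputed values, 186 kept their direction and their side of the threshold or stayed within 1.5 times the value reported, 42 counts moved further, and 14 differences changed sign. With the replicate number as a block, the 8 arrangements cannot go below p = 0.25, and without it the 20 cannot go below 0.1, so that no exact test could pass 0.05 and these p-values say nothing about stability. The exact p with the block was 0.5 for peak number (ratio 0.819), 0.25 for the zinc finger share (2.96 points) and 0.25 for each similarity to another genotype, and limma gave 0 regions for score and length. At a score of 100 or more, the zinc finger share (-2.60 points), the intergenic share (1.81), the receptor share (1.24) and the similarity within minus between models (-0.0107) changed sign, the median peak length (-178 bp against -7.5) and the intron share (-3.99 points against -1.06) moved away from 0 (exact p = 0.1, the smallest possible), and 0, 2 and 30 regions lay in vhl-/- alone, HIF1dPA alone and all 6, with 1 and 0 genes in a single model. With lists of 1039 peaks each, the promoter share (-0.610 points) and the intergenic share (0.192) changed sign, genes of a single model were 9 and 4, and separate windows 8 and 4. Promoter classes up to 1 kb gave -0.207 points. With peaks covering at least 50% of a region, 1 region lay in vhl-/- alone and 40 in all 6. With no peak of the other model within 5000 bp, 0 and 1 regions of a single model were left. Without chromosome 13, 62 regions were in all 6. By share of peaks, 10 windows were higher in vhl-/-. Without the clusters on chromosomes 12 and 13, similarity within minus between models was -7.22e-05. At an unadjusted p under 0.05, limma called 4 regions by score.

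Leaving out each library in turn, regions of vhl-/- alone ranged from 7 to 38 and of HIF1dPA alone from 9 to 48, genes from 7 to 31 and from 16 to 60, and regions in all 6 of 5 libraries from 108 to 123, since fewer libraries have to hold or lack a peak. The promoter share difference ranged from -0.0366 (without vhl-/- replicate 1) to 1.504 points, the receptor share from -1.28 to 0.126 (above 0 without vhl-/- replicate 1 or HIF1dPA replicate 1), the similarity within minus between from -0.00624 to 0.0131, and the zinc finger share from 1.87 to 3.80. Limma called 0 to 1 regions by score, the 1 without HIF1dPA replicate 3, and 0 to 1 by length, the 1 without vhl-/- replicate 3. The cause of the sign changes was not tested. Depth limits every count, since a peak below the caller's minimum score is not listed.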

Other observations

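Peaks of H3K27me3, the Polycomb mark, in any library of the same genotype overlapped 19, 19 and 20 H3K9me3 peaks in vhl-/- (1.83, 1.69 and 1.52%) and 15, 17 and 16 in HIF1dPA (0.973, 1.07 and 1.40%). The H3K27me3 lists differed in length, with 11522 peaks in the 3 vhl-/- lists and 1463 in the 3 HIF1dPA lists, so that the shares were not compared. Of the 103 H3K9me3 regions in all 6 libraries, 16 overlapped an H3K27me3 peak of either genotype. So did 23 of the 5280 shorter regions that were neither in all 6 nor in 3 of one model and 0 of the other. Whether any of the 16 are regions that give peaks with any antibody was not tested.

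A window of chromosome 2 from 111 to 112 Mb, with predicted genes and olfactory receptor genes, held 0 peaks in each vhl-/- library and 3, 3 and 2 in HIF1dPA. A window of chromosome 5 from 145 to 146 Mb, with Cyp3a41a and other Cyp3a genes, which encode drug-metabolizing enzymes of the liver, held 3, 1 and 4 against 6, 5 and 5. Both were among the windows whose groups did not overlap, by number and by share, and were picked out after their values were seen. Of 190 windows, 13 (6.84%) were higher in HIF1dPA by number and 11 (5.79%) by share, so that neither window is read as a difference.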
